A study of Mus musculus with 7 samples.

Results

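The ATP-binding cassette (ABC) transporters are described here as they were expressed in mouse LSK cells, the Lin-Sca1+cKit+ population of the bone marrow (BM) that holds hematopoietic stem cells and multipotent progenitors. Members were chosen by name: every row of the deposited table whose symbol begins with Abca to Abcg followed by a number. Symbols ending in ps or os, which mark pseudogenes and opposite-strand genes, were left out. The rule found 50 genes of 48440 in the table. By subfamily, A had 16 members, B 10, C 10, D 4, E 1, F 3 and G 6.

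LSK cells were sorted by flow cytometry from lethally irradiated C57BL/6 mice (9.5 Gy given as a split dose) at day 77 after transplantation of BM, and polyadenylated RNA was sequenced. The wild-type group (4 libraries) came from recipients of wild-type BM, and the PROSER1 KO group (3 libraries) from recipients of BM of constitutive, endonuclease-mediated PROSER1 knockout mice, with no other treatment in either group. PROSER1 is a proline and serine rich protein that interacts with the TET enzymes, which oxidise 5-methylcytosine in DNA, and the study asked how its loss changes the transcriptome of stem and progenitor cells. The knockout was constitutive in the donor mice, but only their BM was transplanted, and cells of the C57BL/6 hosts did not carry it. Every library came from a regenerated rather than an undisturbed marrow. Irradiated hosts keep some of their own cells, including stroma. The labels call the libraries biological replicates, and whether each came from 1 mouse or from a pool is not given in the sources used here.

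ABC proteins share a nucleotide-binding domain that binds and hydrolyses ATP. In subfamilies A, B, C, D and G this domain drives the movement of sterols, phospholipids, peptides, fatty acyl-CoAs, drugs and conjugated metabolites across membranes, whereas proteins of subfamilies E and F lack membrane-spanning segments and act on ribosomes and translation. Hematopoietic stem cells are known for efflux of fluorescent dyes by ABCG2 and P-glycoprotein, and loss of the sterol exporters ABCA1 and ABCG1 is known to expand the stem and progenitor pool in mice.

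Values are normalised counts, that is, read pairs of a gene divided by a size factor of its library. Each library held 33143619 to 45140743 read pairs assigned to genes, of which ABC members took 72241 to 97382, or 0.205% to 0.221%. Proser1 itself was not lower in the libraries labelled PROSER1 KO: its normalised counts were 2019, 2153, 2103 and 2077 in wild-type libraries, against 2464, 2359 and 2338 in PROSER1 KO libraries (log2 fold change 0.19, limma adjusted p = 0.204), all 3 above all 4 wild-type libraries. The sources used here do not say which part of the transcript the knockout allele removes, so a count over the whole gene cannot check the label. PROSER1 KO libraries are, throughout, the libraries labelled so. All 8 LSK markers were detected in every library, Kit, Cd34 and Flt3 the most, and 7 of them had overlapping groups, while Mecom, a stem cell transcription factor, was lower without overlap (its values stand beside those of Abca4). Of 68 marker genes in 10 cell type lists limma called 0, beside 0.258% of all tested genes. At an unadjusted p under 0.05 there were 10 markers, beside 9.73% of all tested genes. Plasma cell markers, mostly Jchain, summed to 170470 to 428008 normalised counts in wild-type libraries, against 199572 to 298180 in PROSER1 KO libraries. The highest sum was in wild-type library 4. In bulk RNA, fewer cells of a type and less RNA per cell cannot be told apart.

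The LSK libraries held a broad set of ABC transcripts, and which cells in a library they came from was not tested. Of the 50 members, 35 had a mean of at least 10 normalised counts over the 7 libraries and were tested, 6 were detected below that mean, and 9 were at 0 in every library. Tested members numbered 9 in subfamily A, 8 in B, 6 in C, 4 in D, 1 in E, 3 in F and 4 in G. Just inside the minimum lay Abca9 with a mean of 10.5 normalised counts, and just outside it Abca6 with 6.93. Signal was concentrated, as 52.2% of all normalised counts of members lay in 5 genes, and subfamily A alone held 33.8%.

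To compare genes, levels were divided by the length of each gene's merged exons. On this scale the highest members were Abca2, an endosomal and lysosomal transporter linked to sterol and sphingolipid handling, with 1828 normalised counts per kb (wild-type 1863 ± 79.8, SD, n = 4; PROSER1 KO 1781 ± 85.9, n = 3), and Abcf1, which binds translation initiation factor eIF2, with 1578 normalised counts per kb. Abce1, the ATPase that splits ribosomes after termination, followed at 1413 normalised counts per kb, then Abcf2 at 1297 and Abca7, a phospholipid transporter active in phagocytosis, at 1010. Abca7, the lowest of these 5 per kb, stood above 87.5% of tested genes.

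Along the order of levels per kb, Abca2 and Abcf1 did not overlap in any library (lowest Abca2 value 1711, highest Abcf1 value 1705 normalised counts per kb), nor did Abcf1 and Abce1, while Abce1 and Abcf2 overlapped. Further down this scale were Abcf3 at 581 normalised counts per kb, Abcg1 at 529.8, Abcb8 at 448, Abcc1 at 402 and Abcb1b at 378. Of the 34 pairs of neighbours among the 35 tested members, 11 had library ranges that did not overlap and 23 could not be told apart in this way, all per kb of merged exons. Per kb of the longest transcript the same 5 genes were highest, with Abce1 first at 2236 and Abcf1 second at 2202 normalised counts per kb, ahead of Abca2 at 1899. The order of the next genes depended on the length used, since by the longest transcript Abcc1 had 892 normalised counts per kb, Abcb1b 702 and Abcb8 690.1, all above Abcf3 at 669.5 and Abcg1 at 663.

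**Figure D1:**
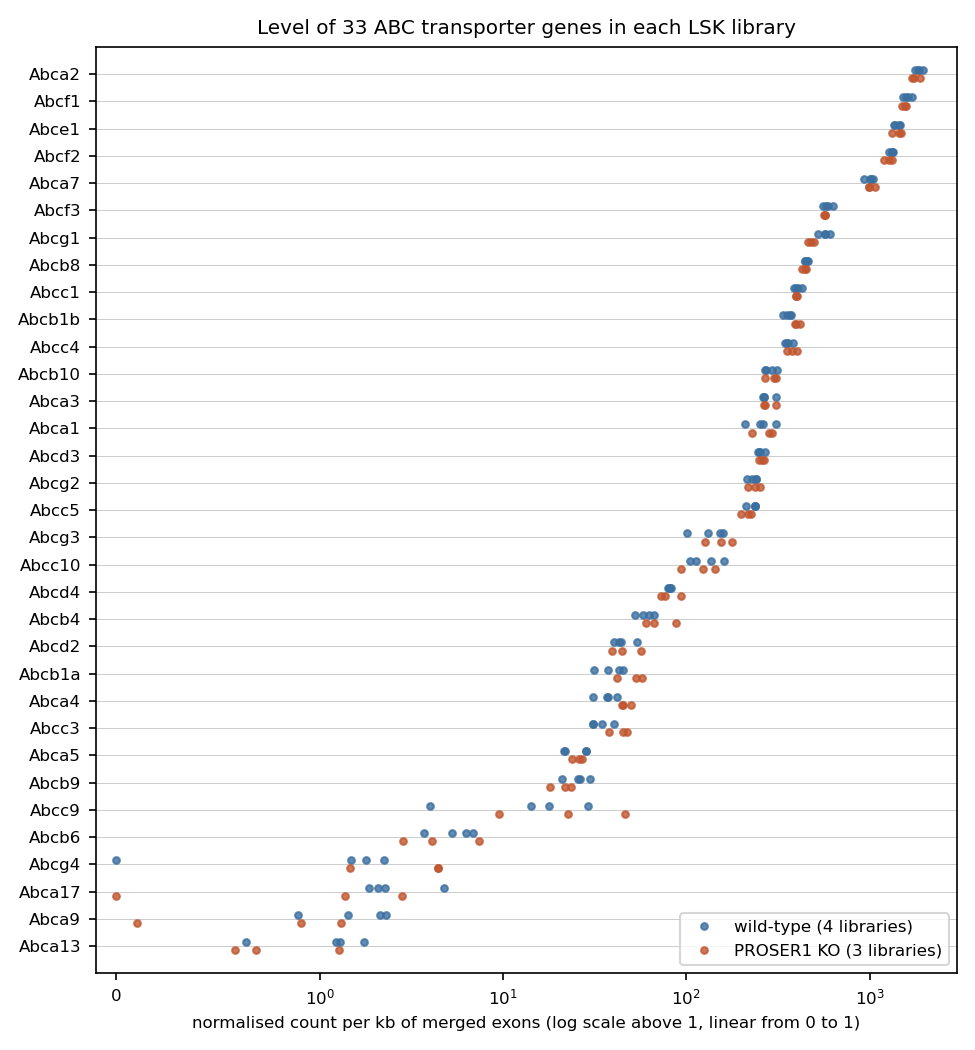
Normalised counts per kb of merged exons for 33 tested ABC genes, 1 row per gene ordered by mean, with a point for each wild-type (blue, 4) and PROSER1 KO (orange, 3) library on a scale that is logarithmic above 1. Levels span from 1828 per kb for Abca2 to 1.07 per kb for Abca13, and the colours lie within each other's range in nearly every row.

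The 9 members at 0 in every library included transporters known from other tissues. They were Abcb11, the bile salt export pump of liver, Abcg5 and Abcg8, the paired sterol exporter of liver and intestine, Abcc6 of liver and kidney, Abca12, the lipid carrier of epidermis, Abcb5, and the cluster of Abca14, Abca15 and Abca16. A count of 0 allowed up to 3 read pairs, which is 2.54 to 3.48 normalised counts depending on the library, and this limit covers counting error only. The 6 members detected below the minimum were Abca6, Abca8a, Abca8b, Abcc2, Abcc8 and Abcc12, and no library of theirs exceeded 12.5 normalised counts. Abca6 had 0.962, 4.51, 5.75 and 8.11 normalised counts in wild-type libraries, against 8.35, 9.31 and 11.5 in PROSER1 KO libraries, with no overlap between groups, but its highest library held 12 read pairs and it was not tested.

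Because TET enzymes act on methylated cytosine in CG dinucleotides, the promoters of members were read for this motif. The 250 bases upstream of the start were taken from RefSeq (GRCm38.p6) for 38 members, and 36 lay within 500 bases of the annotated gene start. The 25 promoters of tested members held a median of 17 CG dinucleotides and 19 of them held 10 or more. The 11 promoters of members that were not tested held a median of 5, with 10 or more in 3. Over all 27025 promoters, of expressed and silent genes alike and at the first listed start of each, the median was 6 and 38.2% held 10 or more. Promoters of all tested genes were not read apart, so this share is no background for tested members alone. The 4 promoters below show this range, with each CG in capitals: Abce1 for a highly expressed member, Abcb1b and Abcg2 for the drug and dye exporters of stem cells, and Abcb11 for a member at 0. They are chr8:79711741-79711990 (minus strand, 20 CG), chr5:8797897-8798146 (plus strand, 9 CG), chr6:58584283-58584532 (plus strand, 3 CG) and chr2:69342617-69342866 (minus strand, 4 CG).
Abce1: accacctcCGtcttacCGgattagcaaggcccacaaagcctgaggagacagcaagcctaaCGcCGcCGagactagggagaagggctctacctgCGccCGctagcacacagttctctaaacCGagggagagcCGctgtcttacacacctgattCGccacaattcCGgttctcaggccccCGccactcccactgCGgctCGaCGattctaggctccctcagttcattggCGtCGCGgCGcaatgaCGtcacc
Abcb1b: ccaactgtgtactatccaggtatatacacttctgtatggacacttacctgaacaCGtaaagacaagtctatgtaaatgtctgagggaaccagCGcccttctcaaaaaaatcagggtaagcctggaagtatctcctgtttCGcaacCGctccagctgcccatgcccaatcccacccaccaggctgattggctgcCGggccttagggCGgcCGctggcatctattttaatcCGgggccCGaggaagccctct
Abcg2: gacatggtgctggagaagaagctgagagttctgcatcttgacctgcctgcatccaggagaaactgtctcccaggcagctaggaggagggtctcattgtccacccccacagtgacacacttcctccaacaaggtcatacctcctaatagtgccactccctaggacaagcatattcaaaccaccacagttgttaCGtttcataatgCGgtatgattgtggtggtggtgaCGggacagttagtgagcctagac
Abcb11: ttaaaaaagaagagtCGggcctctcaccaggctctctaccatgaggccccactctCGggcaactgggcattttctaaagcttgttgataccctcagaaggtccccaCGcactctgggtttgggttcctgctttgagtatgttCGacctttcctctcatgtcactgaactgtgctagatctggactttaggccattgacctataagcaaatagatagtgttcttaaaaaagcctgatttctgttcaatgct
CG content at the annotated start and level of the whole gene did not always go together. Abcg2 had 3 CG and a level of 233 normalised counts per kb, and Abcg8 had 17 CG and was at 0. Only the RefSeq start nearest to the annotated gene start was read for each member. Abcg2 has 13 annotated transcripts, and which start LSK cells use was not tested, so these 3 CG may not be those of its active promoter. DNA methylation was not measured in these libraries.

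The comparison of PROSER1 KO with wild-type LSK cells found no ABC member that passed the test. With limma at an adjusted p under 0.05 and a fold change above 1.5, 0 of 35 members were called, where 0.258% of all 16251 tested genes were. edgeR on recovered read pairs also called 0 members (0.246% of the same genes) and so did DESeq2 (0.63% of 26202 genes). The DESeq2 share is over every gene with any read pair, many of them near 0, so it is not on the same base. At an unadjusted limma p under 0.05 there were 4 members, or 11.4% of those tested, beside 9.73% of all genes: Abcg1 was lower, and Abcb1b, Abca4 and Abcc3 were higher. The groups did not overlap in 3 members: Abcb1b and Abca4 were higher (5.71% of members, beside 5.17% of all genes) and Abcg1 was lower (2.86%, beside 4.83%). These shares lie near the background.

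Differences were small where the gene was well measured. The median log2 fold change of the tested members was 0.02, beside 0.0015 over all tested genes, and 20 of 35 lay above 0 (57.1%, beside 50.6%). Among the 19 members with a mean of at least 1000 normalised counts, log2 fold changes ran from -0.25 to 0.16, and no 95% interval reached further than 0.38 from 0. The interval lay within 1.5-fold either way for 25 of the 35 members (71.4%, beside 65.7% of all genes). The other 10 included all members with large point estimates, whose counts were low or uneven among libraries. Summed over all 50 members, the normalised counts were 83847 ± 472 (SD, n = 4) in wild-type and 83122 ± 1069 (n = 3) in PROSER1 KO libraries, a difference within the spread.

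**Figure D2:**
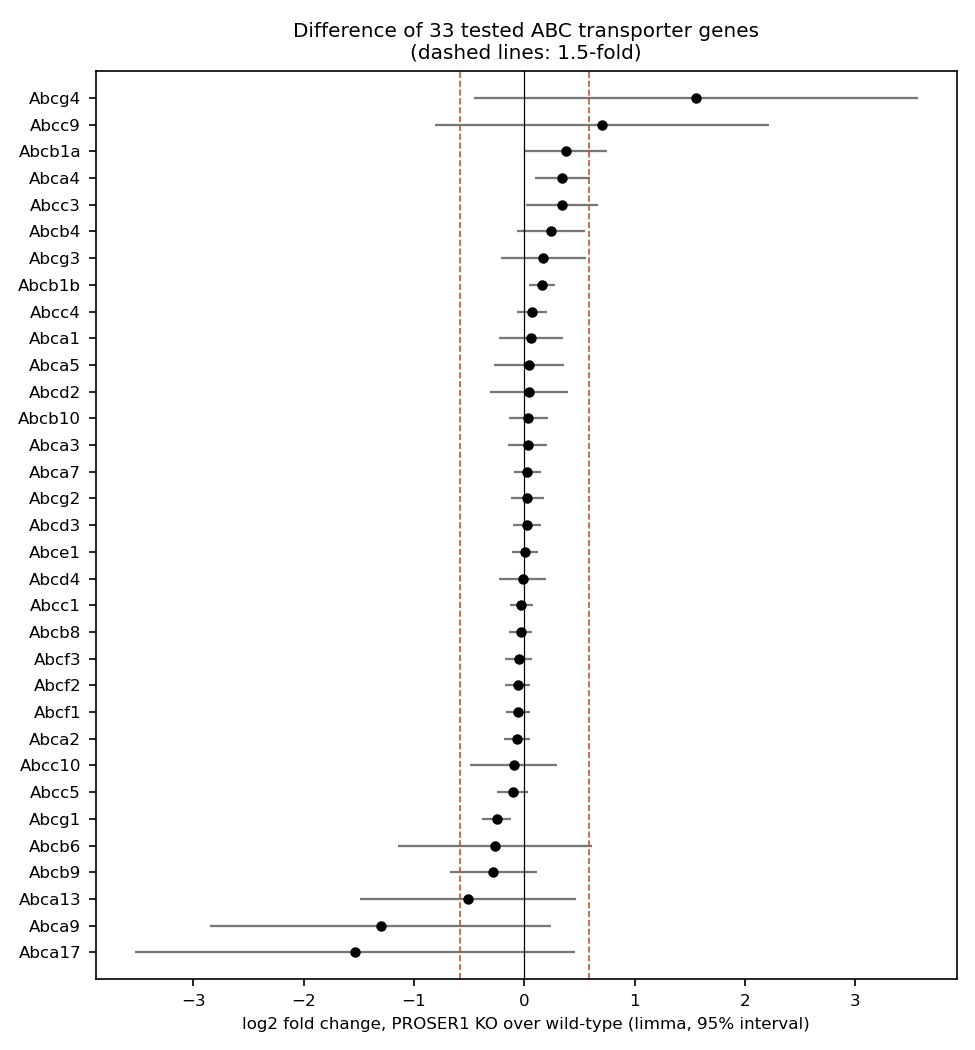
Log2 fold change of 33 tested ABC genes in PROSER1 KO over wild-type LSK cells (points) with the limma 95% interval (lines), and 1.5-fold marked by dashed lines. Most points sit near 0 with short intervals, those of Abcg1, Abcb1b, Abca4 and Abcc3 exclude 0, and the widest belong to Abcg4, Abca17, Abca9 and Abcc9.

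Abcg1, which exports cholesterol to high-density lipoprotein, had the lowest p of any member. The gene (ENSMUSG00000024030) lies at chr17:31057675-31117988 (GRCm38). Its normalised counts were 4438, 4189, 4160 and 3815 in wild-type libraries, against 3362, 3619 and 3480 in PROSER1 KO libraries. Every library labelled PROSER1 KO lay below every wild-type library, and wild-type library 4 came closest to them. The level was 569 ± 35.1 normalised counts per kb (SD, n = 4) in wild-type and 478 ± 17.6 (n = 3) in PROSER1 KO libraries. The log2 fold change was -0.25 (SE 0.058, 95% interval -0.38 to -0.12), a percent difference of -15.9%, with a limma adjusted p = 0.169, and a two-sided exact permutation test over the 35 splits gave p = 0.0571, where 0.0286 is the smallest possible.

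The direction of Abcg1 held under every alternative run, with log2 fold changes of -0.29 to -0.22, but the adjusted p depended on the tool. DESeq2 gave 0.0105 and edgeR 0.197, and the range over all alternatives was 0.0105 to 0.409. Without a fold minimum DESeq2 called Abcg1 and no other member, while calling 1.17% of its 26202 genes, which include genes near 0. edgeR called 0 members and 0.295% of its 16251 genes. The fold of 0.84 is within the 1.5-fold limit, so Abcg1 was not called by the full rule with any tool.

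Abca1, which loads cholesterol onto apolipoprotein A-I and is regulated by the same sterol-sensing LXR receptors as Abcg1, had groups that overlapped. Its normalised counts were 2627, 2704, 2162 and 3189 in wild-type libraries, against 2916, 2368 and 3053 in PROSER1 KO libraries. Values of either group lay among those of the other, and Abca1 varied the most among the 19 abundant members, with a highest library 1.48 times the lowest. The log2 fold change was 0.06 (95% interval -0.23 to 0.35, limma adjusted p = 0.921). Whether Abcg1 and Abca1 differ in their response was not tested.

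A list of 13 genes of sterol efflux and uptake was set beside them. None was called by limma, 3 were lower and 0 higher at an unadjusted p under 0.05, and 8 of 13 had log2 fold changes below 0. Mylip, an LXR-induced ubiquitin ligase, had 2066, 1776, 2053 and 2030 normalised counts in wild-type libraries, against 1622, 1574 and 1756 in PROSER1 KO libraries, without overlap (log2 fold change -0.26, limma adjusted p = 0.234). Srebf1, the sterol regulatory factor, did not overlap either (log2 fold change -0.14, limma adjusted p = 0.414). The LXR genes themselves had log2 fold changes of -0.02 (Nr1h2, limma adjusted p = 0.939) and 0.38 (Nr1h3, limma adjusted p = 0.694).

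The other tested members of subfamily G had overlapping groups. Abcg2, the dye exporter that defines the stem cell side population, had 1752, 1960, 1853 and 1959 normalised counts in wild-type libraries, against 1773, 2049 and 1935 in PROSER1 KO libraries. The groups interleaved, and the log2 fold change was 0.03 with a 95% interval of -0.12 to 0.18 (limma adjusted p = 0.935). Abcg3, a rodent member, ranged from 359 to 563 normalised counts in wild-type libraries, and from 448 to 633 in PROSER1 KO libraries. Summed normalised counts of the subfamily were 6522 ± 203 (SD, n = 4) in wild-type and 5967 ± 310 (n = 3) in PROSER1 KO libraries, and without Abcg1 they were 2371 ± 175 and 2479 ± 184.

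P-glycoprotein, the multidrug exporter, is encoded in mice by the neighbouring paralogs Abcb1a and Abcb1b. Abcb1b (ENSMUSG00000028970, chr5:8798147-8866315) had 2844, 2959, 2710 and 2985 normalised counts in wild-type libraries, against 3128, 3179 and 3352 in PROSER1 KO libraries. Every library labelled PROSER1 KO lay above every wild-type library. The log2 fold change was 0.16 (SE 0.052, 95% interval 0.05 to 0.28), or 12% higher, with a limma adjusted p = 0.337 and an exact two-sided permutation p = 0.0286, the smallest this design allows. Over all alternatives the adjusted p ran from 0.231 to 0.604 and the log2 fold change from 0.13 to 0.18.

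Abcb1a had 236, 248, 205 and 172 normalised counts in wild-type libraries, against 229, 315 and 292 in PROSER1 KO libraries. Only PROSER1 KO library 1 fell within the wild-type range (log2 fold change 0.38, 95% interval -0.00 to 0.75, limma adjusted p = 0.515). Per kb, Abcb1b made up 90.2% ± 1.46 (SD, n = 4) of the pair in wild-type and 88.8% ± 1.48 (n = 3) in PROSER1 KO libraries. Abcb1b was thus the main P-glycoprotein gene of these libraries in both groups. The paralogs are near-identical in parts and the split of reads between them is uncertain. Their sum, which does not depend on that split, was 2915 to 3206 normalised counts in wild-type libraries, against 3358 to 3644 in PROSER1 KO libraries. Subfamily B summed to 10173 ± 97.0 normalised counts (SD, n = 4) in wild-type and 10669 ± 192 (n = 3) in PROSER1 KO libraries, and to 7084 ± 100.2 and 7170 ± 190 without this pair. An antisense gene shares 143 exon bases with Abcb1b on the other strand, and it had a mean of 15.7 normalised counts.

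**Figure D3:**
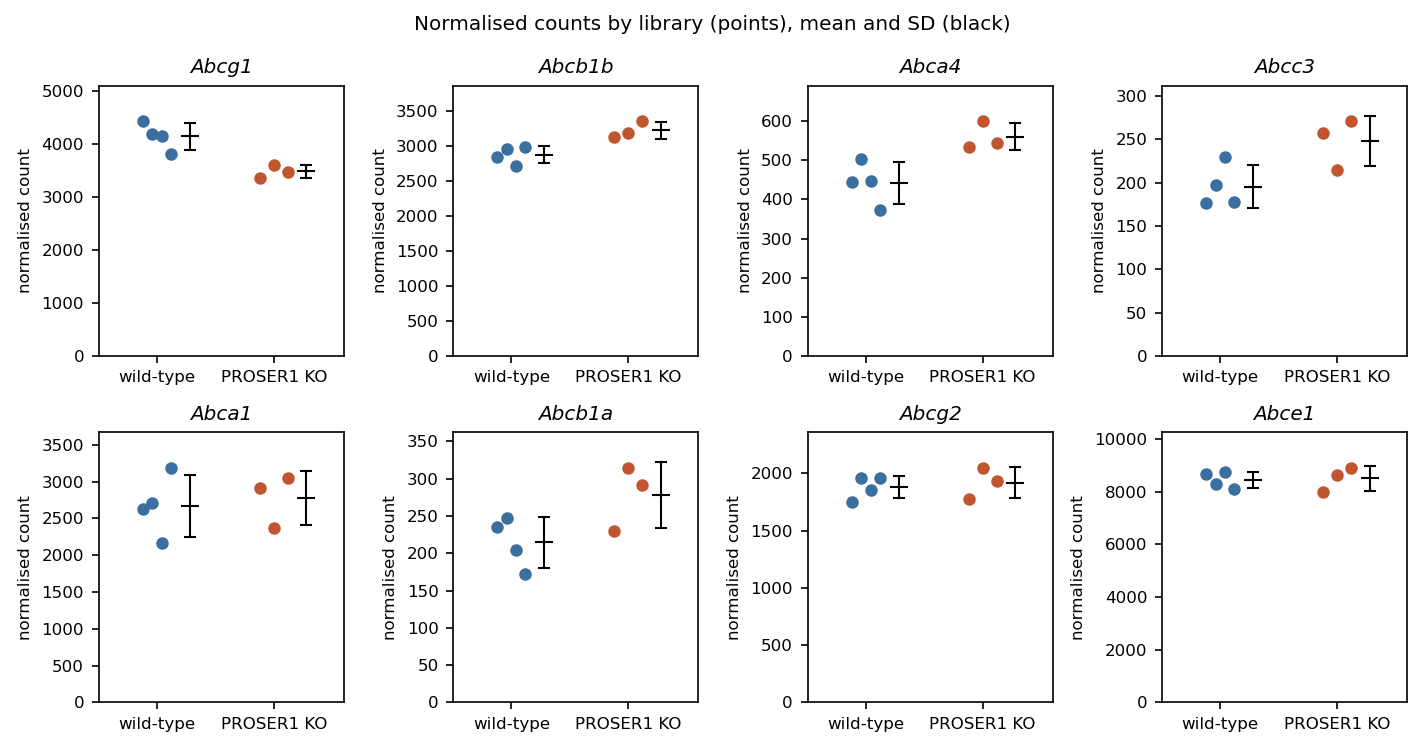
Normalised counts of 8 ABC genes in each wild-type (blue, 4) and PROSER1 KO (orange, 3) library, with the group mean and SD in black and axes from 0. The groups separate for Abcg1 (lower in PROSER1 KO), Abcb1b and Abca4 (higher), and overlap for Abcc3, Abca1, Abcb1a, Abcg2 and Abce1.

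Abca4, the retinoid transporter of photoreceptors, was the other member whose groups did not overlap. The gene (ENSMUSG00000028125, chr3:122044443-122180123) had 445, 504, 448 and 373 normalised counts in wild-type libraries, against 535, 600 and 545 in PROSER1 KO libraries. The highest wild-type library, number 2, stood close below the lowest PROSER1 KO library. The log2 fold change was 0.35 (SE 0.112, 95% interval 0.09 to 0.60), with a limma adjusted p = 0.348 and an exact permutation p = 0.0571. At 41.0 normalised counts per kb its level was low beside Abca2 or Abca7. Summed megakaryocyte markers (6 genes, Itga2b among them) were also higher without overlap, at 12408 to 14217 normalised counts in wild-type libraries, against 14427 to 16280 in PROSER1 KO libraries, and macrophage markers (8 genes) summed to 1290 to 1819 and 1775 to 2029. No gene of either list was called, and none of their defining markers was at 0 in every library. Among single markers, Mecom had 2683, 3030, 2772 and 2790 normalised counts in wild-type libraries, against 2160, 2610 and 2365 in PROSER1 KO libraries (log2 fold change -0.25, limma adjusted p = 0.282). The lymphoid markers Klrb1b and Cd4 and the basophil marker Mcpt8 were likewise lower without overlap, with log2 fold changes of -1.16 (limma adjusted p = 0.0787), -0.61 (limma adjusted p = 0.374) and -0.83 (limma adjusted p = 0.28). The macrophage marker Csf1r and the mast cell marker Cpa3 were higher without overlap, with log2 fold changes of 0.47 (limma adjusted p = 0.334) and 0.23 (limma adjusted p = 0.488). Of all tested genes, 5.17% were higher and 4.83% lower without overlap. Their lists did not move as a whole. Of the T and innate lymphoid genes 5 had log2 fold changes below 0 and 2 above, Cd3e (1.27) and Cd3g (1.61), with overlapping groups. Of the mast cell and basophil genes 4 lay below 0 and 2 above. Most macrophage genes were higher, with 1 below 0 (Adgre1, -0.52) and 7 above, and a median log2 fold change of 0.39. The part of these marker genes and of the cells they mark in the values of Abcg1, Abcb1b and Abca4 was not tested.

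The other well-expressed A members differed little. Abca2 had 14837, 15620, 16422 and 15312 normalised counts in wild-type libraries, against 14282, 14643 and 15665 in PROSER1 KO libraries, the most of any member, with overlapping groups and a log2 fold change of -0.07 (95% interval -0.18 to 0.05). Abca7 had 6279, 7049, 6805 and 6907 normalised counts in wild-type libraries, against 7220, 6735 and 6729 in PROSER1 KO libraries (log2 fold change 0.03, limma adjusted p = 0.908). PROSER1 KO library 1 was the highest and wild-type library 1 the lowest for Abca7. Abca3, the lamellar body lipid transporter of lung, had 2472 to 2904 normalised counts in wild-type libraries, against 2504 to 2910 in PROSER1 KO libraries. A long noncoding gene with a mean of 1011 normalised counts shares 914 exon bases with Abca3 on the other strand, and the strand setting of the counting is not given in the sources used here, so Abca3 values are uncertain. Abca5 ranged from 245 to 326 normalised counts over all 7 libraries.

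The ribosome-acting members were among the steadiest. Abce1 had 8663, 8303, 8750 and 8114 normalised counts in wild-type libraries, against 7983, 8651 and 8914 in PROSER1 KO libraries, and the PROSER1 KO values spread on both sides of the wild-type ones (log2 fold change 0.01, 95% interval -0.11 to 0.13). Abcf1 had 7518, 6973, 7136 and 6708 normalised counts in wild-type libraries, against 6594, 6858 and 6942 in PROSER1 KO libraries (log2 fold change -0.06, limma adjusted p = 0.744). Abcf2 had 3394, 3454, 3415 and 3283 normalised counts in wild-type libraries, against 3072, 3291 and 3405 in PROSER1 KO libraries (log2 fold change -0.06, limma adjusted p = 0.751). Groups overlapped in both genes, as they did in Abcf3, the mammalian counterpart of the yeast GCN20 protein (log2 fold change -0.05). All 3 F members had log2 fold changes below 0, none beyond -0.06, and their summed normalised counts were 12570 ± 452 (SD, n = 4) in wild-type and 12081 ± 358 (n = 3) in PROSER1 KO libraries.

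Of 8 genes of ribosome recycling and integrated stress sensing set beside them, none was called. Gcn1, the ribosome-bound activator of the stress kinase GCN2, had 8825, 8572, 8661 and 8233 normalised counts in wild-type libraries, against 7584, 8027 and 8085 in PROSER1 KO libraries. Its groups did not overlap (log2 fold change -0.12, limma adjusted p = 0.425), and it was the only gene of this list at an unadjusted p under 0.05.

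The mitochondrial members Abcb10 and Abcb8 were expressed at steady levels, while Abcb6 was low and uneven, its highest library 2.58 times the lowest. Abcb10, an inner membrane transporter required for heme formation in erythroid cells, had 1343, 1152, 1269 and 1167 normalised counts in wild-type libraries, against 1162, 1297 and 1334 in PROSER1 KO libraries (log2 fold change 0.04, 95% interval -0.14 to 0.21). The groups interleaved. Abcb8, of the same membrane, ranged from 2039 to 2179 normalised counts over all libraries, and Abcb6, a porphyrin transporter, was at 15.2 to 39.4. Abcb6 shares 2932 exon bases with another annotated transcript on its own strand. How the counting treated read pairs in shared bases is not given in the sources used here, so Abcb6 values are uncertain.

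In the list of 16 heme and iron-sulfur genes 15 were tested and none was called. Alad and Ppox, enzymes of heme synthesis, were lower at an unadjusted p under 0.05, with log2 fold changes of -0.17 (limma adjusted p = 0.447) and -0.13 (limma adjusted p = 0.494). Erythroid Alas2 was not tested, with at most 8.64 normalised counts in any library.

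Peroxisomal and lysosomal D members had overlapping groups. Abcd3, a peroxisomal fatty acyl-CoA transporter, ranged from 1616 to 1764 normalised counts in wild-type libraries, and from 1645 to 1755 in PROSER1 KO libraries. Abcd2, also peroxisomal, ranged from 240 to 319 and from 233 to 338 normalised counts in the same order, and Abcd4, which acts in cobalamin release from lysosomes, from 635 to 663 and from 581 to 747. All 3 had log2 fold changes between -0.01 and 0.04, and 95% intervals within 1.5-fold. In 10 genes of peroxisomal oxidation and cobalamin handling none was called, and Acaa1a, a thiolase, was lower without overlap (log2 fold change -0.18, limma adjusted p = 0.359).

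Subfamily C holds the multidrug resistance proteins that export glutathione, glucuronide and nucleotide conjugates. Abcc1, the exporter of leukotriene C4 and glutathione conjugates, had 5979, 6125, 6490 and 5847 normalised counts in wild-type libraries, against 6051, 5984 and 5955 in PROSER1 KO libraries, with the PROSER1 KO values inside the wild-type range (log2 fold change -0.03, 95% interval -0.13 to 0.08). Abcc4, which exports cyclic nucleotides, had 2206, 2288, 2438 and 2278 normalised counts in wild-type libraries, against 2563, 2427 and 2265 in PROSER1 KO libraries (log2 fold change 0.07, limma adjusted p = 0.746). Its groups overlapped. Abcc5 and Abcc10 had log2 fold changes of -0.10 and -0.09 with overlapping groups, and Abcc10 was the less even, from 644 to 1108 normalised counts.

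Abcc3, an exporter of glucuronides and bile salts, had 177, 197, 230 and 177 normalised counts in wild-type libraries, against 258, 215 and 271 in PROSER1 KO libraries. PROSER1 KO library 2 lay below wild-type library 3, so the groups overlapped by these libraries. The log2 fold change was 0.34 (95% interval 0.01 to 0.67, limma adjusted p = 0.488, range over alternatives 0.389 to 0.714). Among 13 genes of glutathione synthesis and conjugation none was called, and Gstp1 was the only one at an unadjusted p under 0.05 (log2 fold change -0.14, limma adjusted p = 0.477).

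Abcc9, the SUR2 subunit of ATP-sensitive potassium channels, was the least even of the members above 100 normalised counts. It had 149, 33.4, 120 and 243 normalised counts in wild-type libraries, against 79.3, 189 and 390 in PROSER1 KO libraries. The highest library was 11.7 times the lowest, both groups spread widely, and the log2 fold change of 0.71 had a 95% interval of -0.81 to 2.22 (limma adjusted p = 0.783). Leaving out 1 library at a time moved it from 0.14 (without wild-type library 2) and 0.15 (without PROSER1 KO library 3) to 1.29 (without PROSER1 KO library 1). Kcnj8, the pore subunit that pairs with SUR2 in vessels, had 24.0, 7.21, 33.3 and 54.5 normalised counts in wild-type libraries, against 11.5, 28.8 and 52.8 in PROSER1 KO libraries, and was lowest in the same library as Abcc9 (log2 fold change 0.12, limma adjusted p = 0.976). Kcnj11, the pore subunit that pairs with SUR1, had a log2 fold change of -0.51 (95% interval -1.39 to 0.36, limma adjusted p = 0.709). Abcc8, the SUR1 subunit of pancreatic beta cells, was at 2.30 normalised counts or below.

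Both endothelial markers plotted here, Cdh5 and Kdr, moved with Abcc9 across libraries. Cdh5, encoding VE-cadherin, had 163, 33.4, 136 and 231 normalised counts in wild-type libraries, against 106, 182 and 258 in PROSER1 KO libraries. Kdr, encoding a VEGF receptor, had 191, 96.5, 154 and 265 normalised counts in wild-type libraries, against 146, 234 and 392 in PROSER1 KO libraries. Both genes placed the 7 libraries in the same order as Abcc9, from wild-type library 2 up to PROSER1 KO library 3, and they were singled out after their values were seen. The other 5 of the 7 stromal and endothelial markers did not follow that order, and Pecam1, which hematopoietic progenitors also express, was lowest in PROSER1 KO library 3. The whole list summed to 7094 to 8810 normalised counts in wild-type libraries, against 8200 to 8868 in PROSER1 KO libraries, and none of its genes was at 0 in every library. The part of such cells in the Abcc9 values was not tested.

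**Figure D4:**
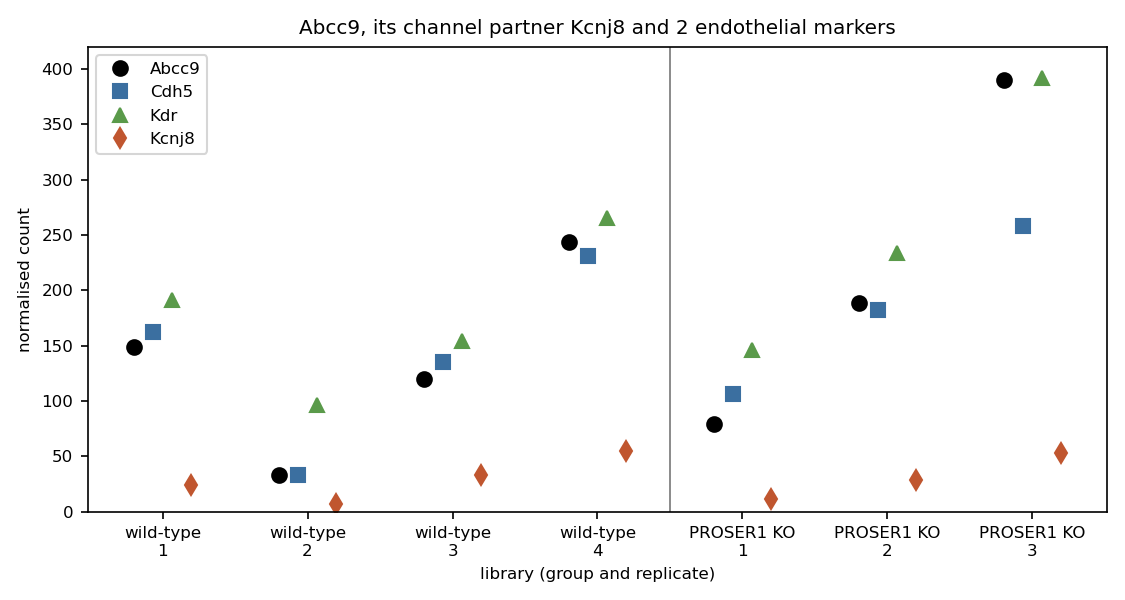
Normalised counts of Abcc9, its channel partner Kcnj8 and the endothelial markers Cdh5 and Kdr in each of the 7 libraries, on a linear axis from 0. Abcc9, Cdh5 and Kdr order the libraries alike, lowest in wild-type library 2 and highest in PROSER1 KO library 3 (33.4 and 390 for Abcc9), within both groups.

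The remaining large point estimates came from genes near the detection limit. Abcg4, a sterol exporter of brain and megakaryocyte progenitors, had 7.69, 11.7, 0 and 9.27 normalised counts in wild-type libraries, against 22.9, 7.62 and 23.0 in PROSER1 KO libraries (log2 fold change 1.55, 95% interval -0.46 to 3.57). Abca17 had 11.5, 12.6, 10.3 and 26.7 normalised counts in wild-type libraries, against 15.6, 0 and 7.68 in PROSER1 KO libraries (log2 fold change -1.54, 95% interval -3.53 to 0.46). Both had overlapping groups and a limma adjusted p = 0.614, and each had a library at 0, where the fold change depends on the added pseudocount of 1. Without wild-type library 3, at 0 for Abcg4, its log2 fold change was 0.71, and without PROSER1 KO library 2 it was 2.05. Without PROSER1 KO library 2, at 0 for Abca17, that of Abca17 was -0.34, and without PROSER1 KO library 1 it was -2.37.

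Abca9 had 11.5, 7.21, 17.2 and 18.5 normalised counts in wild-type libraries, against 7.30, 0.846 and 10.6 in PROSER1 KO libraries (log2 fold change -1.30, 95% interval -2.85 to 0.25). Abca13, the longest ABC protein, had 34.6, 24.3, 12.6 and 25.5 normalised counts in wild-type libraries, against 25, 13.5 and 11.5 in PROSER1 KO libraries (log2 fold change -0.51, 95% interval -1.49 to 0.47). Overlap was seen in both, and a difference was not detectable at this depth. With 1 library left out, the log2 fold change of Abca9 ran from -1.82 (without PROSER1 KO library 3) to -0.50 (without PROSER1 KO library 2), and that of Abca13 from -0.82 (without PROSER1 KO library 1) to -0.30 (without PROSER1 KO library 3). Abcb4 and Abcb9 also overlapped, with 493 to 829 and 101 to 166 normalised counts over all libraries and log2 fold changes of 0.24 (limma adjusted p = 0.605) and -0.28 (limma adjusted p = 0.653). Abcb4 is the phosphatidylcholine floppase of bile, and Abcb9 a lysosomal peptide transporter.

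ABC genes that carry other names were read with the partner lists. Tap1 and Tap2, which form the peptide transporter of antigen presentation, had 11174 to 14343 and 12012 to 14489 normalised counts over the 7 libraries, and Tap2 was lower at an unadjusted p under 0.05 (log2 fold change -0.14, limma adjusted p = 0.436). Cftr, the chloride channel of epithelia, was at 2.30 to 30.5 normalised counts (log2 fold change 1.16, limma adjusted p = 0.682). Over all 7 partner lists 64 of 65 genes were tested, limma called 0, and 9 (14.1%, beside 9.73% of all genes) had an unadjusted p under 0.05, all of them lower (beside 4.74% of all genes that were lower at this p). Of the 64, 41 had log2 fold changes below 0 and 23 above, with a median of -0.04. Groups did not overlap in 6 of the 64 (9.38%), all lower, beside 4.83% of all genes that were lower without overlap. They were Srebf1, Mylip, Gcn1 and Acaa1a, with Uros of heme synthesis (log2 fold change -0.11, limma adjusted p = 0.675) and Gss of glutathione synthesis (log2 fold change -0.12, limma adjusted p = 0.586).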

How the data were processed

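Polyadenylated RNA of LSK cells (wild-type, 4 libraries; PROSER1 KO, 3 libraries) was sequenced after preparation with a directional kit. Per the methods and the submitters' processing notes, the authors trimmed read pairs (Trimmomatic), mapped them to mm10 (STAR), counted them per gene (featureCounts) and normalised them with DESeq2. The deposited signal is the count per gene divided by 1 size factor per library. The methods name GENCODE release 25, the file header release M10, and the strand setting of the counting is not given in the sources used here. Dividing by the worth of 1 read pair gave back whole read pairs for 100% of values (tolerance 0.01). Rows without a symbol (685) held 0.109% to 0.135% of read pairs and were not removed. There were 0 columns of other samples.

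The main test was limma 3.58.1 in R 4.3.3 (lmFit, then eBayes with trend) on log2(normalised count + 1). It covered 16251 genes that reached a mean of 10, with Benjamini-Hochberg adjustment over all of them. Calls needed an adjusted p under 0.05 and a fold above 1.5. Fold changes are on this log2 scale, and those of low genes depend on the pseudocount. edgeR 4.0.16 (quasi-likelihood) and DESeq2 1.42.0 were run on recovered read pairs, and the fits were tested on simulated data. Other alternatives were pseudocounts of 0.1 and 10, no minimum mean or one of 50, quantile and TMM scaling, no trend, robust variances, a replicate block and each library left out. Positions and lengths came from GENCODE M21 (GRCm38), which matched all 50 members, and 12 members share exon bases with another annotated gene.

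Values in every library are given for members with an unadjusted p under 0.05, called by any tool or without group overlap, for the 5 highest per kb, the 3 largest changes each way, and Abcb1a, Abcb1b, Abcg2, Abcg1, Abca1, Abcc1, Abcc4, Abcb10 and Abce1. Values of 2 tested members and of some other genes are not reported here. The members, lists and this rule were chosen with earlier results of these data known.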

Additional observations from a re-analysis of the deposited data

Results flagged for a closer look

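In 3 of the 35 tested members, 1 of the 4 wild-type libraries stood apart from the other 3 by Dixon's criterion, which chance meets in about 1 of 20 groups. Abca17 had 26.7 normalised counts in wild-type library 4, against 10.3 to 12.6 in the other 3. Abca3 had 2904 normalised counts in the same library, which also held the highest sum of plasma cell markers (428008 normalised counts), while 2472 to 2488 were counted in the other 3. PROSER1 KO library 1 reached a similar Abca3 value of 2910 with a plasma cell marker sum of 221841, and the part of these cells was not tested. Abcc5 had 2263 normalised counts in wild-type library 3, below 2520 to 2530 in the other 3. Groups of 3 were not examined in this way.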

How the results depend on the processing

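No ABC member was called by limma, edgeR or DESeq2 under any alternative that kept the fold minimum; in an addition made after seeing the data, dropping it gave 1 call with DESeq2 (Abcg1) and 0 with edgeR. Over all genes, 42 were called, against 17 without the variance trend, 80 with robust variances, 165 with DESeq2, and 23 to 42 when a library was left out, lowest without PROSER1 KO library 2. Leaving out a library gave 0 members called, 3 to 5 at an unadjusted p under 0.05, 3 to 6 without group overlap (fewer libraries make separation easier; 5 without wild-type library 2 or 4 or PROSER1 KO library 2, and 6 without wild-type library 3 or PROSER1 KO library 1), and a median log2 fold change of -0.011 to 0.030.

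Of 584 values of single members under alternatives, 561 kept direction and side of the threshold and 23 changed sign, in 12 members, none of them past the threshold. Their lowest and highest log2 fold changes without a library were -0.035 and 0.17 (Abca1), -0.040 and 0.088 (Abca3), -0.024 and 0.11 (Abca5), -0.0060 and 0.050 (Abca7), -0.0032 and 0.096 (Abcb10), -0.62 and 0.037 (Abcb6), -0.047 and 0.0034 (Abcc1), -0.23 and 0.075 (Abcc10), -0.10 and 0.16 (Abcd2), -0.12 and 0.060 (Abcd4), -0.025 and 0.055 (Abce1), and -0.021 and 0.083 (Abcg2). Apart from these, Abcc10 changed sign to 0.023 and Abce1 to -0.011 with the replicate block. The cause was not tested.

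The libraries share only a replicate number: deviations of same-numbered libraries correlated at 0.023, 0.058 and -0.106. The block left wild-type library 4 without a partner, called 35 genes and 0 members, and changed no call of a member. Per kb of the longest transcript, Abcf1 moved to 2202 and Abce1 to 2236 normalised counts per kb, and Abcc1, Abcb1b and Abcb8 moved above Abcf3 and Abcg1. Depth limits members under about 10 normalised counts, where 1 read pair is worth 0.846 to 1.16 normalised counts.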
